A study of Mus musculus with 6 samples.

Results

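The 8 genes described here encode mouse carboxylesterases of the families 2, 3 and 4, namely Ces2a, Ces2b, Ces2c, Ces2e, Ces2g, Ces3a, Ces3b and Ces4a. They were taken by symbol from deposited liver RNA sequencing tables that list 23291 genes each, and all 8 were found. Carboxylesterases are serine hydrolases of the endoplasmic reticulum that cleave ester, amide and carbamate bonds in drugs and in lipids. Liver and small intestine are rich in them. In humans, carboxylesterase 2 of the intestine and carboxylesterase 1 of the liver act on dabigatran etexilate, an oral prodrug of the thrombin inhibitor dabigatran. Mice carry several tandem copies of these genes, and the mouse Ces2 enzymes are also known as acylglycerol hydrolases.

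The study compared livers of C57BL/6 mice that ate a high fat (Western) diet with dabigatran etexilate at 10 mg per gram of diet with livers of C57BL/6 mice that ate the same diet without the drug. Both groups were labelled as 3 months on diet, and the age of the mice is not given in the sources used here. The dabigatran group has 3 deposited tables, but those of replicates 0 and 1 were identical and were counted as 1 library, called dabigatran replicate 1, which leaves n = 2. The diet group has 3 libraries, replicates 0, 1 and 2. Values are FPKM, fragments counted per kilobase of a gene and relative to library size, so levels of different genes can be compared per length. Only the design text calls the replicates mice, and p-values measure the spread between these 5 libraries.

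The 8 genes lie in a single tandem array on mouse chromosome 8 (GRCm38, chr8:104734003-105150109), all on the plus strand, in the order Ces2a, Ces2b, Ces2c, Ces2e, Ces2g, Ces3a, Ces3b and Ces4a. The pseudogene Ces2d-ps and the genes Ces2f and Ces2h lie between them in the GENCODE annotation. The coding sequences of the 5 Ces2 members were 81.6% to 92.1% identical to each other, with Ces2b and Ces2c the closest pair. Those of Ces3a and Ces3b were 95.3% identical, and Ces4a was 61.6% to 63.2% identical to the other members. Reads of near-identical stretches cannot be assigned to 1 gene with certainty. Of the 50-base windows in the annotated transcripts, 36.1% of those of Ces2c also occur in another gene, mostly Ces2d-ps, as do 25.6% of those of Ces3a and 26.2% of those of Ces3b, mostly in each other. The share was 17.3% for Ces2a, 9.43% for Ces2b, 3.30% for Ces2e, 3.07% for Ces2g and 0 for Ces4a. Exons of Ces3a also overlap Gm45724 on the opposite strand, and the use of strand in the counting is not given in the sources used here.

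The 150 bases before the annotated start are shown for the 4 Ces2 members with measurable RNA and for Ces3b, the member with the opposite direction, so that the stretches next to the genes can be read beside their values. RefSeq promoter windows (GRCm38.p6, 250 bases before to 50 after the start) matched 6 of the 8 members, all but Ces2b and Ces3a. Capitals mark ACTTTG, the reverse complement of CAAAGT, a core half-site of HNF4, the nuclear receptor that maintains hepatocyte gene expression.
Ces2a: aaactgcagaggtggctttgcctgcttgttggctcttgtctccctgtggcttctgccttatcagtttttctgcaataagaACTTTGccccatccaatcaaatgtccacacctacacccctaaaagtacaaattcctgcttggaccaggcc
Ces2c: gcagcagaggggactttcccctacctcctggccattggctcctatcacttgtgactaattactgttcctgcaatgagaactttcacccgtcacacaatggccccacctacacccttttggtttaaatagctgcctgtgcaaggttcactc
Ces2e: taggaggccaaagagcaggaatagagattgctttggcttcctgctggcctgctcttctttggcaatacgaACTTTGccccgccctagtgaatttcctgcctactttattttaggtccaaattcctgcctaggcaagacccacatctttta
Ces2g: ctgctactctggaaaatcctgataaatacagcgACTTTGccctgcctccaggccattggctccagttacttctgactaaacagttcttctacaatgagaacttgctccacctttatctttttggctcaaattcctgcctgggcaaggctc
Ces3b: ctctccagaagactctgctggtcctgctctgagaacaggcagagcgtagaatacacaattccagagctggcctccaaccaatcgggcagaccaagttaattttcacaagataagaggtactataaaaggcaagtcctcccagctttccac

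In GRCm38.p6 these stretches are chr8:104733853-104734002 (Ces2a), chr8:104846918-104847067 (Ces2c), chr8:104926110-104926259 (Ces2e), chr8:104961568-104961717 (Ces2g) and chr8:105083605-105083754 (Ces3b), all on the plus strand. Searched on both strands, CAAAGT was present in the windows of Ces2a, Ces2e and Ces2g, and in 14.4% of all 32851 windows. A longer form, ACTTTG with A before it and CCC after it, began 71 bases before the start of Ces2a and 81 bases before that of Ces2e, and was present in 17 of all windows (0.0517%). The same 10 letters lie in the window of Ces2f, a gene listed at 0 in every library. The TATAAA element was present in the window of Ces3b alone among the 6 members and in 13.6% of all windows. Ces3a, the close copy of Ces3b, had no window and was not searched. No member window held the CAR and PXR repeat, AGTTCA followed after 4 bases by AGTTCA (0.0122% of all windows), the PPAR repeat, AGGTCA followed after 1 base by AGGTCA (0.0396%), or the antioxidant response element TGACNNNGC (12.4%). The motifs were chosen after the sequences were seen. They are matches of letters in a short window, and no binding was measured.

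Ces3a was the most abundant member in every library and Ces2b the least abundant. Ces3a ranked between 72 and 98 among all listed genes by level. In the dabigatran libraries the order was Ces3a, Ces3b, Ces2a, Ces2e, with Ces2c and Ces2g changing places between replicates 1 and 2. In diet replicates 0 and 2, Ces2e stood at about the level of Ces3b and above Ces2a, while diet replicate 1 had the same order of these 4 genes as the dabigatran libraries.

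**Figure D1:**
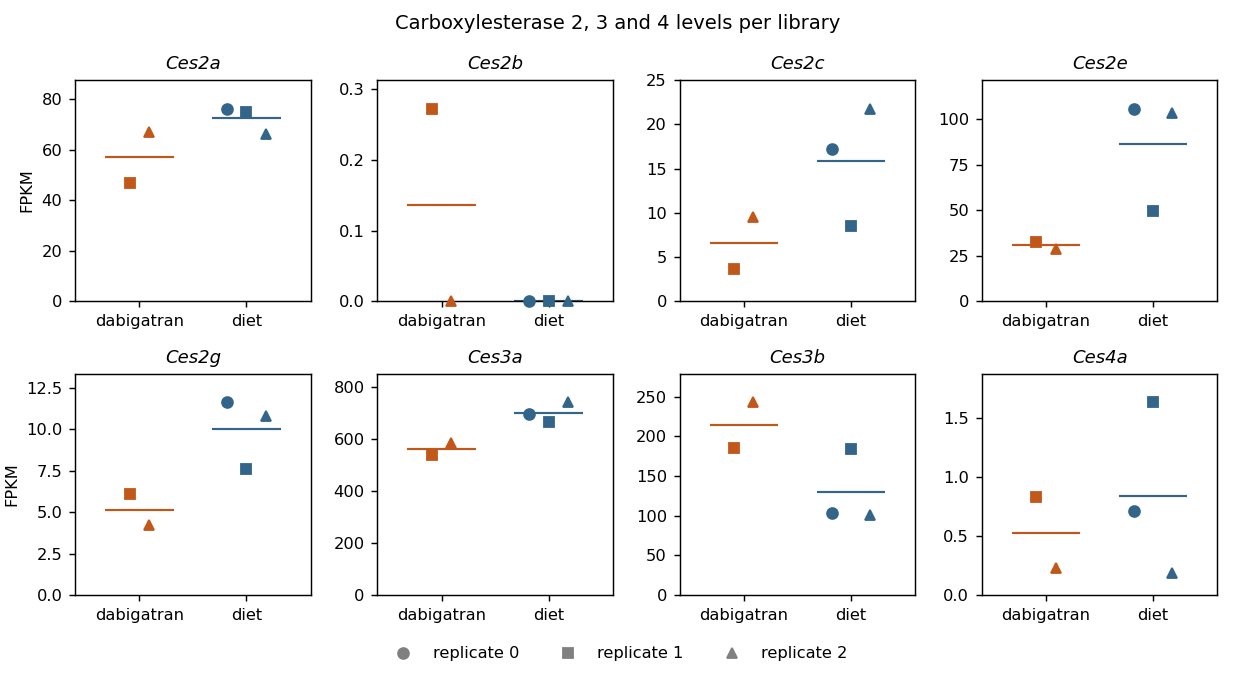
FPKM (vertical axes, each from 0) of each of the 8 genes in the 2 dabigatran libraries (orange) and the 3 diet libraries (blue); marker shapes give the replicate number and lines the group mean. Ces2e, Ces2g and Ces3a lie lower in both dabigatran libraries than in every diet library, and Ces3b higher, with diet replicate 1 often nearest to the dabigatran values.

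Ces2a, Ces2c, Ces2e and Ces2g, of a family whose enzymes cleave drug esters and acylglycerols, had lower mean levels with dabigatran, as did Ces3a, while Ces3b had a higher one. None of these differences passed the test over all genes. The 6 members with at least 1 FPKM in all 5 libraries were tested with limma on log2(FPKM + 0.5), and 0 of 6 passed an adjusted p of 0.05 in either direction. In the same test 0.303% of the 10247 tested genes were called lower and 0.127% higher. At an unadjusted p under 0.05, limma gave 3 members lower (Ces2c, Ces2e and Ces2g) and 1 higher (Ces3b), beside 9.13% of tested genes lower and 6.87% higher. The groups did not overlap for 3 lower members (Ces2e, Ces2g and Ces3a) and 1 higher member (Ces3b), beside 17.2% of tested genes in each direction. The log2 difference was below 0 for 5 of the 6 members, beside 48.1% of tested genes. The median log2 difference of the 6 members was -0.63, beside 0.02 over all tested genes.

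Ces2e showed the widest separation. Its level was 32.5 and 29.0 FPKM in dabigatran replicates 1 and 2, against 106, 49.4 and 104 FPKM in diet replicates 0, 1 and 2. Both dabigatran libraries lay below every diet library, and diet replicate 1 lay between them and the other diet libraries. The mean was 30.7 ± 2.48 FPKM in the dabigatran group and 86.3 ± 31.97 FPKM in the diet group (SD, n = 2 and n = 3). The log2 difference was -1.39 ± 0.33 (SE), with a 95% interval of -2.15 to -0.64 and a limma adjusted p of 0.104, and 2.56% of the tested genes had a lower p. Without diet replicate 1, Ces2e passed the test with a log2 difference of -1.75 (limma, adjusted p = 0.00618). In that fit 199 genes were called lower and 95 higher, against 31 and 13 with all 5 libraries. Without diet replicate 0 the difference was -1.21 (limma, adjusted p = 0.326), and without diet replicate 2 it was -1.22 (adjusted p = 0.335). Without dabigatran replicates 1 and 2 in turn, it was -1.48 and -1.31.

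Ces2c, first known as an acylcarnitine hydrolase of mouse liver, had 3.66 and 9.57 FPKM in dabigatran replicates 1 and 2, against 17.3, 8.54 and 21.8 FPKM in diet replicates 0, 1 and 2. The groups overlapped, because diet replicate 1 lay below dabigatran replicate 2. These values correspond to 14 and 33 fragments in the dabigatran libraries and 77, 29 and 94 fragments in the diet libraries. The 95% counting interval was 2.00 to 6.14 FPKM in dabigatran replicate 1 and 5.72 to 12.3 FPKM in diet replicate 1. The log2 difference was -1.24 ± 0.46 (SE), with a 95% interval of -2.31 to -0.17 (limma, adjusted p = 0.251). Leaving out dabigatran replicate 1 gave -0.60 (limma, adjusted p = 0.533), and leaving out dabigatran replicate 2 gave -1.88 (limma, adjusted p = 0.306).

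Ces2g, a less studied family 2 gene, had 6.07 and 4.24 FPKM with dabigatran, against 11.6, 7.62 and 10.8 FPKM in diet replicates 0, 1 and 2. The groups did not overlap, and diet replicate 1 was again the lowest of its group. The counts behind these values were 35 and 22 fragments in the dabigatran libraries and 78, 39 and 70 fragments in the diet libraries, so the counting intervals of dabigatran replicate 1 (4.23 to 8.45 FPKM) and diet replicate 1 (5.42 to 10.4 FPKM) overlapped. The log2 difference was -0.89 ± 0.26 (SE), with a 95% interval of -1.50 to -0.28 (limma, adjusted p = 0.168).

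Ces2a, the second most abundant family 2 gene in the diet mean, differed less. It had 46.9 and 66.9 FPKM with dabigatran, against 76.2, 74.7 and 66.2 FPKM in diet replicates 0, 1 and 2, on 179 and 230 fragments and 339, 253 and 285 fragments. The groups overlapped, since dabigatran replicate 2 lay above diet replicate 2. The log2 difference was -0.36 ± 0.20 (SE), with a 95% interval of -0.83 to 0.10 (limma, adjusted p = 0.418). The interval holds both no difference and a level 0.564 times that of the diet group. Without dabigatran replicate 1 the difference was -0.11, and without dabigatran replicate 2 it was -0.62.

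Summed over Ces2a, Ces2b, Ces2c, Ces2e and Ces2g, the level was 89.4 and 109.7 FPKM in dabigatran replicates 1 and 2, against 211, 140.2 and 202 FPKM in diet replicates 0, 1 and 2. All diet libraries lay above both dabigatran libraries, with diet replicate 1 nearest to them. The sum of Ces3a and Ces3b was 727 and 828 FPKM in the dabigatran libraries, against 799.8, 849.7 and 843 FPKM in the diet libraries, and the groups overlapped.

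Ces3a, an abundant liver esterase formerly named esterase 31, and its close copy Ces3b lay in opposite directions. Ces3a had 541 and 585 FPKM with dabigatran, against 697, 666 and 742 FPKM in diet replicates 0, 1 and 2. Every dabigatran value lay below every diet value, by a small margin for a gene of this level. The mean was 563 ± 31.0 FPKM in the dabigatran group and 702 ± 38.4 FPKM in the diet group (SD, n = 2 and n = 3). The log2 difference was -0.32 ± 0.17 (SE), with a 95% interval of -0.71 to 0.08 (limma, adjusted p = 0.409).

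Ces3b had 185 and 243 FPKM with dabigatran, against 103, 184 and 100.5 FPKM in diet replicates 0, 1 and 2. Diet replicate 1 stood just under dabigatran replicate 1 and far above the other diet libraries. The mean was 214 ± 40.6 FPKM in the dabigatran group and 129 ± 47.4 FPKM in the diet group (SD, n = 2 and n = 3), a log2 difference of 0.77 ± 0.29 (SE) with a 95% interval of 0.11 to 1.43 (limma, adjusted p = 0.250). Without diet replicate 1, Ces3b passed the test with a log2 difference of 1.05 (limma, adjusted p = 0.0333), in the fit with 199 genes called lower and 95 higher. Without diet replicate 0 the difference was 0.64 (limma, adjusted p = 0.556), and without diet replicate 2 it was 0.62 (adjusted p = 0.535). Without dabigatran replicates 1 and 2 in turn, it was 0.96 and 0.58. Within a library, the ratio of Ces3b to Ces3a does not depend on the scaling of the library. It was 0.342 and 0.414 in the dabigatran libraries, against 0.148, 0.276 and 0.135 in the diet libraries. Both dabigatran ratios lay above all diet ratios, as they must where Ces3a is lower and Ces3b higher without overlap. The pair also share windows, and the authors' counting could split reads between them.

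**Figure D2:**
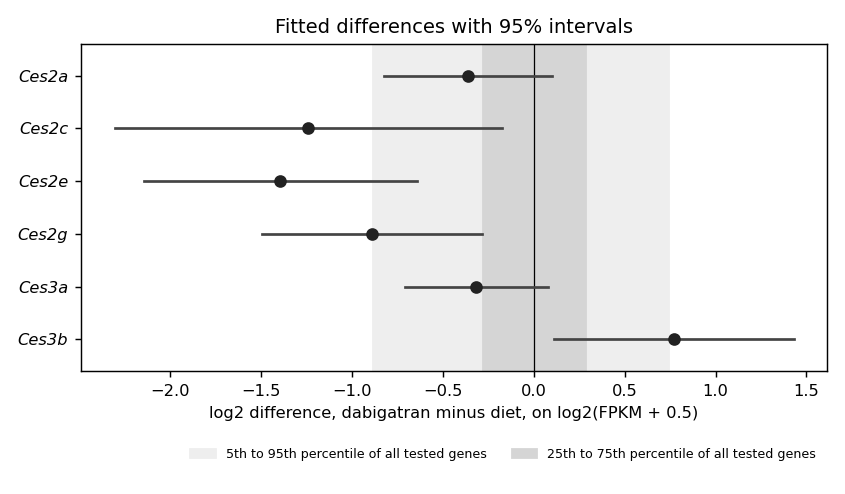
Log2 difference on log2(FPKM + 0.5), dabigatran minus diet (horizontal axis), of the 6 tested genes with 95% intervals from limma; grey bands hold the middle 50% and the middle 90% of all tested genes. Ces2c, Ces2e and Ces2g lie below the lower band edge of -0.88 and Ces3b just above the upper edge of 0.74, while the intervals of Ces2a and Ces3a include 0.

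The make-up of the carboxylesterase RNA differed accordingly. Ces2e held 3.98% and 3.09% of the summed FPKM of the 8 genes in the dabigatran libraries, against 10.5%, 4.98% and 9.91% in diet replicates 0, 1 and 2. Ces3b held 22.7% and 25.9%, against 10.2%, 18.5% and 9.61%. Ces3a remained the main component, with 66.3% and 62.4%, against 68.9%, 67.2% and 71.0%. The sum of all 8 genes was 817 and 938 FPKM with dabigatran, against 1011, 992 and 1045 FPKM on diet alone. The mean difference of -139 FPKM was -78.3 FPKM without dabigatran replicate 1 and -199 FPKM without dabigatran replicate 2.

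**Figure D3:**
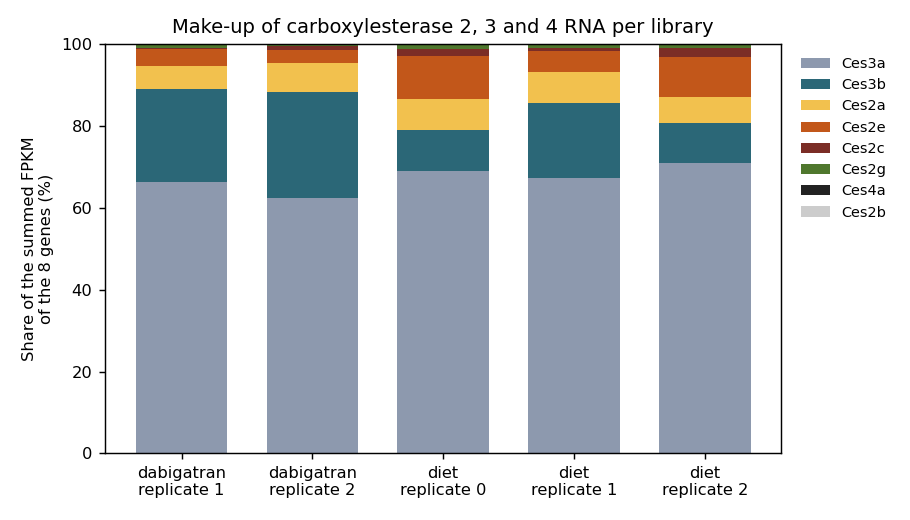
Share of each gene in the summed FPKM of the 8 genes (vertical axis, %), per library, dabigatran libraries on the left. Ces3b (dark teal) takes 22.7% and 25.9% in the dabigatran libraries against 9.61% to 18.5% in the diet libraries, and Ces2e (orange) 3.98% and 3.09% against 4.98% to 10.5%.

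The other members had too little RNA for a test. Ces4a, a member whose substrates are little known, had 0.827 and 0.230 FPKM with dabigatran, against 0.709, 1.63 and 0.183 FPKM in diet replicates 0, 1 and 2. These are 4 and 1 fragments and 4, 7 and 1 fragments, and the groups overlapped. Ces2b was listed at 0 in all diet libraries and in dabigatran replicate 2, and had 0.273 FPKM in dabigatran replicate 1. That value was taken as 1 fragment, which a single value above 0 cannot test. A listed 0 does not exclude a low level of Ces2b. In the libraries listed at 0, the upper ends of its counting intervals were 0.863 to 1.13 FPKM. A level of 3 fragments would be 0.702 to 0.922 FPKM there, and lower levels could be listed at 0 or above it. Outside the 8 genes, Ces2f was also listed at 0 in every library, and Ces2d-ps reached at most 0.899 FPKM.

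Diet replicate 1 departed from the other diet libraries in the direction of the dabigatran libraries for 5 of the 6 tested members. Against the diet mean on the log2(FPKM + 0.5) scale, it stood at -0.76 for Ces2c, -0.72 for Ces2e, -0.35 for Ces2g, -0.07 for Ces3a and 0.57 for Ces3b. Dabigatran replicates 1 and 2 stood at -1.88 and -0.60 for Ces2c, -1.31 and -1.48 for Ces2e, -0.65 and -1.13 for Ces2g, and 0.58 and 0.96 for Ces3b. On the first principal component of all tested genes, with 49.2% of the variance, the dabigatran libraries lay at 15.8 and 48.7, diet replicate 1 at -6.16 and diet replicates 0 and 2 at -29.5 and -28.8. The part of this library's position in the member values was not tested.

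**Figure D4:**
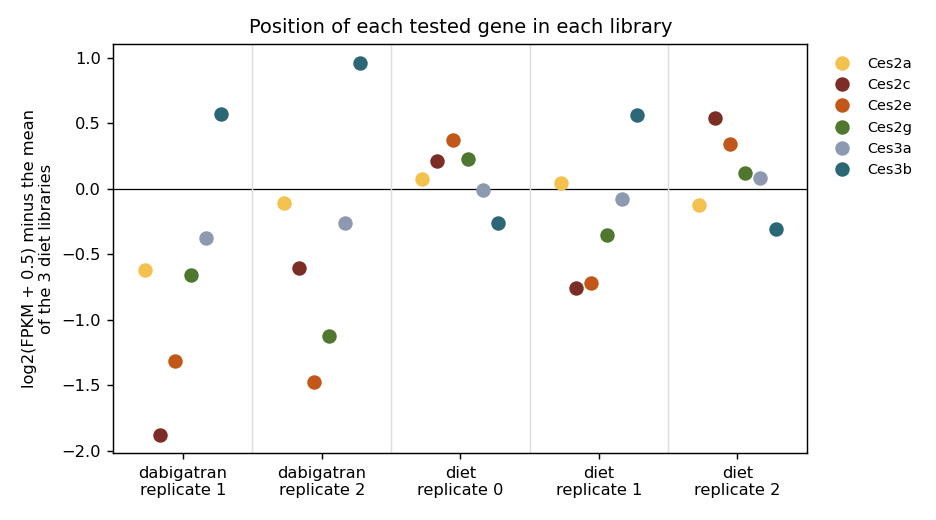
Deviation of each tested gene from the mean of the 3 diet libraries, in log2(FPKM + 0.5) (vertical axis), per library (horizontal axis, dabigatran libraries on the left). Ces2c, Ces2e and Ces2g lie at -0.60 or lower in both dabigatran libraries and between -0.76 and -0.35 in diet replicate 1, where Ces3b stands at 0.57.

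Along the chromosome, the 4 tested Ces2 genes and Ces3a had differences below 0 and the neighbouring Ces3b one above 0. The 5 nearest tested genes on each side of the array were taken among genes whose symbol matched the annotation. A tested gene listed under another symbol would be missed. These neighbours, chosen after the member values were seen, had log2 differences between -0.62 (Cmtm4) and 0.85 (Hsf4). By limma, 0 of these 10 genes passed over all genes. At an unadjusted p under 0.05, Cmtm4 (-0.62) and D230025D16Rik (0.68) did, beside 9.13% of all tested genes lower and 6.87% higher. The 5 matched genes after Ces4a (Cbfb, D230025D16Rik, Tradd, Hsf4 and E2f4) were higher in both dabigatran libraries than in any diet library. Their differences were 0.47 to 0.85. On the other side of the array, Nae1 (0.37) was also higher without overlap and Cmtm4 was lower without overlap. In all, 7 of the 10 genes did not overlap, beside 17.2% of all tested genes in each direction.

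**Figure D5:**
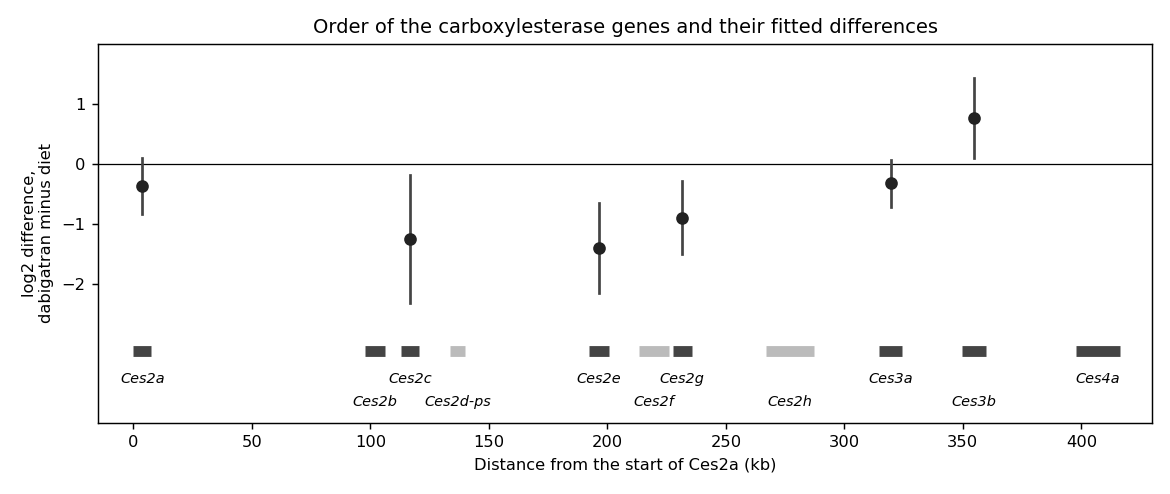
Log2 difference on log2(FPKM + 0.5), dabigatran minus diet (vertical axis), with 95% intervals, plotted at each gene's distance from the start of Ces2a (horizontal axis, kb); dark bars are the 8 members and light bars other family 2 genes. Ces2b and Ces4a carry no point because their levels were too low for a test, and Ces3b at 0.77 is the single point above 0.

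The genes whose levels ran most like each member were sought among 6095 other tested genes with a mean of at least 5 FPKM. Likeness was the root mean square difference, over the 5 libraries, of log2 values centred on each gene's mean, given here as a description. Closest to Ces2e was Ces1e (0.08), a carboxylesterase of family 1 from another array on the same chromosome, with 18.8 and 18.1 FPKM in the dabigatran libraries against 62.4, 32.8 and 68.7 FPKM in the diet libraries. Acy3 (0.09), an aminoacylase, and Gamt (0.11), which makes creatine, followed. Closest to Ces2c were Cyp2c29 (0.24), a cytochrome P450, Cib2 (0.24) and the retinal dehydrogenase gene Aldh1a1 (0.25). Closest to Ces2g were Nln (0.04), Entpd5 (0.06) and Acat3 (0.06). Ces2a ran with Tmem25 (0.01), Atg3 (0.02) and Gnpat (0.06), and Ces3a with the vitamin D binding protein gene Gc (0.01), the thiolase gene Acat1 (0.02) and Ly86 (0.03). Ces3b was matched by A130040M12Rik (0.08), by Alas1 (0.09), the first enzyme of heme synthesis, and by Ap3b1 (0.10). Alas1 had 110.1 and 155 FPKM with dabigatran, against 72.4, 110.5 and 65.4 FPKM in diet replicates 0, 1 and 2, so that diet replicate 1 was high for both genes.

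The carboxylesterases of family 1 and Ces5a gave the nearest comparison. Of 8 listed genes 6 were tested, and 1 fell and none rose over all genes, beside 0.303% and 0.127% of all tested genes. The median log2 difference was -1.11. Single differences ranged from -2.34 (Ces1f) to 0.30 (Ces1b), and Ces1c, the most abundant of the list, had one of -0.18. The gene that fell was Ces1f, with 39.9 and 20.7 FPKM in the dabigatran libraries against 172, 104.8 and 177 FPKM in the diet libraries (limma, adjusted p = 0.0404). Ces1d, which takes part in the mobilisation of stored triglyceride, had 131 and 70.0 FPKM, against 288, 109.4 and 293 FPKM. Its groups overlapped through diet replicate 1, as did those of Ces1g, with 24.3 and 27.5 FPKM against 80.2, 23.7 and 91.6 FPKM. Ces1a reached 0.598 FPKM in diet replicate 0 and was listed at 0 elsewhere, and Ces5a was listed at 0 in every library.

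Other esterases and neutral lipid hydrolases gave 0 calls among 18 tested genes by limma over all genes. At an unadjusted p under 0.05, 8 were lower and 1 higher, beside 9.13% and 6.87% of all tested genes. The groups did not overlap for 10 lower genes and 1 higher gene, beside 17.2% of all tested genes in each direction. The median difference was -0.31. Among them, Bphl, a hydrolase that activates ester prodrugs, had 53.8 and 58.2 FPKM with dabigatran, against 97.5, 86.0 and 107 FPKM on diet alone (limma, adjusted p = 0.0902). Esd, esterase D, had a log2 difference of -0.72 (adjusted p = 0.0945) and Lipc, hepatic lipase, one of -0.74 (adjusted p = 0.101). The groups did not overlap for these 3 genes. Pnpla2, the gene of adipose triglyceride lipase, had the single difference above 0 at an unadjusted p under 0.05, 1.05.

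Among genes for glucuronidation and efflux, whose products conjugate or export drugs, 0 of 8 tested genes passed over all genes by limma. At an unadjusted p under 0.05, 6 were lower and none higher, beside 9.13% and 6.87% of all tested genes. The median difference was -0.77. Ugt2b36 had 169 and 148 FPKM with dabigatran, against 306, 286 and 368 FPKM on diet alone (limma, adjusted p = 0.0674). Abcg2, a drug efflux pump, had 29.0 and 28.4 FPKM, against 50.6, 52.0 and 50.4 FPKM (limma, adjusted p = 0.0751). The third, Ugt2b34, had a difference of -0.77 (adjusted p = 0.0932).

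Among nuclear receptors and partners that control drug metabolism genes, 1 of 10 fell and none rose over all genes by limma, with a median of 0.20. Of all tested genes, 0.303% were called lower and 0.127% higher. Pparg, the receptor that promotes fat storage, was the gene that fell, with 1.12 and 1.55 FPKM in the dabigatran libraries against 7.95, 5.31 and 8.37 FPKM in the diet libraries (difference -2.06, adjusted p = 0.0404). Ahr had 8.18 and 9.27 FPKM in the dabigatran libraries against 5.59, 5.19 and 4.94 FPKM in the diet libraries (adjusted p = 0.175). Nfe2l2, which encodes NRF2, had a difference of -0.68 (adjusted p = 0.219) and Rxra one of 0.48 (adjusted p = 0.240). Hnf4a, whose half-site was searched in the promoters, had 134 and 236 FPKM with dabigatran, against 100.3, 125 and 107 FPKM on diet alone (limma, adjusted p = 0.243), so the groups did not overlap but dabigatran replicate 1 lay close to diet replicate 1.

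CAR and PXR target genes gave 0 calls among 13 tested by limma over all genes, with a median of -0.19. At an unadjusted p under 0.05, 5 were lower and 4 higher, beside 9.13% and 6.87% of all tested genes. Sult1d1, a sulfotransferase, had 161 and 254 FPKM with dabigatran, against 56.9, 86.8 and 57.9 FPKM on diet alone (adjusted p = 0.0591). Por, the electron donor of cytochromes P450, had a difference of 1.51 (adjusted p = 0.0674) and Abcc3, an export pump, one of -1.69 (adjusted p = 0.0714). Cyp2b10, the classic CAR target, reached at most 0.981 FPKM and was not tested. Cyp3a11 had the largest difference of the list, -2.17 (limma, adjusted p = 0.129). Its level was 123 and 358 FPKM with dabigatran, against 1206, 468 and 1511 FPKM on diet alone. Genes of retention and folding in the endoplasmic reticulum, where carboxylesterases reside, gave 0 calls among 8 tested by limma, with a median of 0.16. At an unadjusted p under 0.05, 1 was higher (Kdelr2, 0.53), beside 6.87% of all tested genes. The other members of lowest p were Calr (0.58, adjusted p = 0.344) and Hspa5 (0.54, adjusted p = 0.470).

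The libraries held liver RNA by their markers. Summed FPKM of 7 hepatocyte markers was 36830 to 49460 in the dabigatran libraries and 33340 to 36660 in the diet libraries, without overlap. The gap was narrow, and Alb alone had 18532 and 27246 FPKM against 20513, 18647 and 21821 FPKM. Apoa1, Serpina1c and Tat were higher in both dabigatran libraries than in any diet library, and Ttr was lower. Such separation was seen for 17.2% of all tested genes in each direction. Alb, Cyp2e1 and Pck1 overlapped. In bulk tissue, fewer cells of a type and less RNA per cell cannot be told apart. The summed markers of Kupffer cells (171 to 249 FPKM in dabigatran libraries, 185 to 237 FPKM in diet libraries), sinusoidal endothelium (89.5 to 89.7 FPKM in dabigatran libraries, 87.2 to 90.7 FPKM in diet libraries), stellate cells and lymphocytes overlapped between the groups. Within the endothelial list, 5 of 6 genes were higher in both dabigatran libraries than in any diet library and Clec4g was lower. Of all tested genes, 17.2% did not overlap in each direction. Cholangiocyte markers summed to 11.1 to 38.9 FPKM with dabigatran and 32.8 to 51.9 FPKM on diet alone, most of it Spp1. Red cell genes summed to 64.2 to 89.9 FPKM with dabigatran and 76.6 to 139.9 FPKM on diet alone.

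Of the intestinal markers, Lct, Sis and Cdx1 were listed at 0 in every library and Vil1 reached at most 0.253 FPKM. Fabp2, which liver also expresses, fell to 198 and 162 FPKM with dabigatran, against 409.7, 404 and 396 FPKM on diet alone (limma, adjusted p = 0.0424). Of the pancreatic markers, Cpa1, Pnlip, Prss1 and Ctrb1 were listed at 0 in every library, and Cela2a had 1.12 FPKM in dabigatran replicate 2 and 0 elsewhere. Of the adipocyte markers, Plin1 and Lep were listed at 0 in every library. Adipoq and Retn had 0.320 and 0.677 FPKM in diet replicate 0 and 0 elsewhere. Cfd was listed at 0 in both dabigatran libraries and had 150.4, 28.3 and 47.5 FPKM in diet replicates 0, 1 and 2. It was called lower (limma, adjusted p = 0.0110). Pericentral hepatocyte markers summed to 6479 to 7897 FPKM with dabigatran and 6322 to 7483 FPKM on diet alone, most of it Cyp2e1. Oat of this list had 494 and 622 FPKM with dabigatran, against 802, 765 and 1003 FPKM in diet replicates 0, 1 and 2. It was lower without overlap, beside 17.2% of all tested genes, while Glul, Cyp2e1, Axin2 and Slc1a2 overlapped. Among the 5 periportal markers, Hal, Sds and Gls2 were higher in both dabigatran libraries than in any diet library, beside 17.2% of all tested genes. The groups overlapped for Cyp2f2 (-0.20) and Pck1 (0.95). Sds passed the test, with 148 and 157 FPKM with dabigatran, against 58.3, 63.5 and 66.2 FPKM on diet alone (limma, adjusted p = 0.0404). The part of these shifts in the carboxylesterase values was not tested.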

How the data were processed

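Liver RNA was sequenced from TruSeq RNA libraries, per the labels' protocols. The deposited values are FPKM per gene, per the file headers. The submitters' processing notes name Cuffdiff, TopHat, TopHat2 2.0.4, CASAVA and R 2.15.1 and the builds GRCm38 and mm10, without roles. Annotation, multi-mapped reads and scaling were not given in the sources used here.

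Of the genes, 10247 reached 1 FPKM in 3 or more of the 5 distinct libraries. They were fitted as log2(FPKM + 0.5) with limma 3.58.1 in R 4.3.3 (lmFit, eBayes with a variance trend), dabigatran minus diet, two-sided, with Benjamini-Hochberg adjustment over all of them. This scale understates changes of low genes. The steps were tested on simulated data. Low values step in units of 1 fragment, which gave depths of 0.857 and 0.772 for dabigatran replicates 1 and 2 and 0.761 and 0.967 for diet replicates 1 and 2, relative to diet replicate 0. On these depths 5 members were whole fragment numbers (relative tolerance 2e-05, smallest numbers taken), and Ces2e, Ces3a and Ces3b were not. For Ces2b, with a single value above 0, this outcome was fixed in advance. Intervals for fragments (exact Poisson, 95%) cover counting error only, and an exact 0 can be a failed estimate.

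The members and lists were chosen with earlier results of these data known. From each list the called genes and up to 3 others by unadjusted p are named. Cyp2b10, Cyp3a11, Ces1a, Ces1b, Ces1c, Ces5a, Pnpla2, Hnf4a, Clec4g and single markers were named after their values were seen. Positions are from GENCODE M21, promoters from RefSeq, and alignments from Biopython 1.88. Alternatives were other pseudocounts, filters, scalings and variance models, a replicate block, and each library left out.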

Additional observations from a re-analysis of the deposited data

How the results depend on the processing

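With 2 and 3 libraries a group, differences under about the intervals given could not be resolved, and leaving out 1 dabigatran library leaves a lone sample assumed to vary like the diet group. The 6 tested members kept the direction of their log2 difference in all 14 alternatives each. Members called lower numbered 0, and 1 (Ces2e) with both identical tables counted (log2 difference -1.37, adjusted p = 0.0477), which treats 1 library as a pair; with 1 library left out they ranged from 0 to 1, and those called higher from 0 to 1, with Ces2e lower and Ces3b higher without diet replicate 1. The median of the members was -0.34 without a filter on low values, which adds Ces2b and Ces4a, and ranged from -0.71 to -0.43 with 1 library left out. The difference in summed FPKM ranged from -199 to -78.3 with 1 library left out. Over all genes, 31 were called lower and 13 higher, against 17 and 6 with log2(FPKM + 0.1), 0 and 0 without a filter on low values (where limma gave 1117 and 816 at an unadjusted p under 0.05), 16 lower with quantile normalization, 0 and 0 without a variance trend (870 and 692 at an unadjusted p under 0.05), 8 higher with at least 5 FPKM, and 257 and 142 with both identical tables counted. With 1 library left out, the calls ranged from 0 to 199 lower and from 0 to 95 higher, highest without diet replicate 1 and next without dabigatran replicate 1 (181 lower and 94 higher); the cause was not tested. The replicate numbers pair no samples by the labels. Deviations of same-numbered libraries from their group means correlated at -0.04 and -0.03 for numbers 1 and 2. With 2 dabigatran libraries these deviations mirror each other, so the correlations are not independent. With the replicate number as a block, 8 genes were called lower and 5 higher, 0 of them members, and the median of the members was -0.55. Number 0 then occurs in the diet group only. The block fit therefore gave the same member differences as leaving out diet replicate 0, on 1 residual degree of freedom.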
